A study of Homo sapiens with 6 samples.

Results

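The genes described here encode the enzymes that hydroxylate and crosslink collagen. They are the rows of the deposited table with the symbols P4HA1, P4HA2, PLOD1, PLOD2, PLOD3, LOX, LOXL1, LOXL2, LOXL3 and LOXL4, which are 10 of its 61806 genes. The set was picked with earlier results of these data known, and no measured value entered the choice of rows. RNA of U87-MG cells, which are an established glioblastoma line of human origin, was sequenced to ask which genes respond when GRIK1, a kainate-type glutamate receptor subunit, is knocked down. The negative control (NC) group, with wildtype as its labelled genotype, has 3 libraries. The other group, whose labelled genotype is GRIK1 knockdown and whose titles name GRIK1 siRNA, also has 3. The deposited description speaks of an shRNA, and the labels do not say whether the numbers in the titles are replicates or siRNA sequences. The methods of the study list siRNA sequences under those same numbers, and its text says that the first of them was carried into later experiments, so the meaning of the numbers is not settled. They were used here as replicate numbers. Libraries of the latter group are called knockdown-labelled here. All libraries come from a single cell line, and nothing states that they came from separate cultures, so p-values measure the spread between these libraries, which may be technical.

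Collagen chains are modified before they leave the endoplasmic reticulum and again outside the cell. Prolyl 4-hydroxylases, built from a catalytic alpha subunit (P4HA1 or P4HA2) and protein disulfide isomerase (P4HB), hydroxylate prolines, and this stabilises the triple helix. The lysyl hydroxylases (PLOD1, PLOD2 and PLOD3) modify lysines that later carry sugars and stable crosslinks. Both kinds of enzyme need iron, oxygen, 2-oxoglutarate and ascorbate. The lysyl oxidases (LOX and LOXL1 to LOXL4) are secreted copper enzymes that turn lysines of collagen and elastin into reactive aldehydes, from which crosslinks form. Several of these genes are known targets of the hypoxia-inducible factors, and stiff, crosslinked matrix is a known feature of invasive tumours.

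With all 6 libraries, 0 of the 9 tested enzyme genes passed an adjusted p under 0.05 in edgeR, against 3.09% of all tested genes (1.61% as higher and 1.48% as lower), and 3 did in DESeq2, against 10.6%. Of the 9, 5 were higher in every knockdown-labelled library than in every NC library, against 19.3% of all tested genes. Among the 9, P4HA2 and LOX had the largest differences with all 6 libraries, with fitted folds of 1.99 and 1.66. NC library 3 stood apart from the other libraries for most of these genes. Without it, P4HA2, LOX, PLOD2, P4HA1 and LOXL3 rose and LOXL1 fell, which is 6 of 9 where 35.2% of all tested genes passed (16.9% as higher and 18.3% as lower). LOXL2, PLOD1 and PLOD3 did not pass there. P4HA2 and PLOD2 had the largest fitted folds in that comparison, 1.68 and 1.48, and LOX had 1.41. With GC correction added, LOXL1 no longer passed and PLOD1 and PLOD3 did, which makes 7 of 9 where 37.0% of all tested genes passed. LOXL4 was at the edge of detection, below the filter on low values, and is given apart from the 9.

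The libraries held between 11099909 and 14006968 counts. Ribosomal protein genes had a share of 9.37% in NC library 3, of 5.24% and 5.50% in NC libraries 1 and 2 and of 4.79% to 4.86% in the knockdown-labelled libraries. Genes with at least 1 count numbered 23902 to 24993 in NC and 26134 to 27049 in the knockdown-labelled libraries. Both measures separated the groups, and their part in the enzyme values was not tested. The common dispersion of edgeR, which measures the spread within groups, fell to 0.00298 when NC library 3 was left out, from 0.0391. GRIK1 itself had 18, 9 and 8 counts in NC and 15, 20 and 20 counts in the knockdown-labelled libraries. The targeted gene was therefore not lower under its own label, and the group is called by its label for that reason. The labelled glioma identity was read against marker genes. Mesenchymal markers such as VIM were abundant, with all 6 above a mean of 0.5 FPKM, while 4 of 6 glial markers (GFAP, SOX2, NES and S100B) were below it. Summed over the list, mesenchymal markers were at 1384 to 2279 FPKM in NC and at 2490 to 2593 FPKM in the knockdown-labelled libraries, and their part in the enzyme values was not tested. Macrophage, endothelial, neuronal and epithelial markers were low, with summed levels of at most 5.17 FPKM in any library for any of these lists. The macrophage sum was at 3.36 to 4.32 FPKM in NC and 4.74 to 5.17 FPKM in the others, with AIF1 at 0 in every library and PTPRC and ITGAM under a mean of 0.5 FPKM.

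The promoters of the enzyme genes were searched for ACGTG, the letters at the heart of a common hypoxia response element, and for GCGTG, its other usual form. The search covered both strands of the 250 bases before each start in the RefSeq promoter table (GRCh38.p14). Windows of 9 of the 10 genes were searched, and LOXL2 was not searched. ACGTG was present for 3 of them, PLOD2, LOX and P4HA1, and 5 of the 9 held ACGTG or GCGTG. A gene was counted where any of its windows held the motif, and LOX has 3 windows and LOXL3 has 2. Counted in the same way, 21.7% of the 27305 genes in that table held ACGTG and 47.4% held ACGTG or GCGTG. Per window the shares were 18.5% and 43.2% of 35116. The most upstream window of LOX held 4 matches to ACGTG, PLOD2 held 2 and P4HA1 held 1. The other windows of LOX overlap each other, and each held 1 match that is not shown. P4HA2, whose difference was the largest of the tested enzymes, had neither motif in this window. The RefSeq starts can differ from the ends of the deposited genes. The P4HA2 window, from 132227092 to 132227341, lay inside the deposited gene, and so did the window of PLOD2. Part of the most upstream LOX window also lay inside the deposited gene. A match is a description of the letters, not a binding site. The stretches of 30 bases around the matches, shown because these 3 genes are compared with their paralogs in what follows and for LOX from its most upstream window only, read 5′ to 3′ on the minus strand, which is the gene strand of each. Capitals mark ACGTG or its reverse complement CACGT.
LOX, chr5:122078427-122078456: gctccctgtgcaACGTGtctggggggagga
LOX, chr5:122078358-122078387: ctgtccgccttgCACGTttccaatcgcatt
LOX, chr5:122078340-122078369: tccaatcgcattACGTGaacaaatagctga
LOX, chr5:122078284-122078313: gtaactttgcaaACGTGccagaaagtttaa
PLOD2, chr3:146161367-146161396: cgtgagcctccaCACGTagccgcaggcagc
PLOD2, chr3:146161313-146161342: caaacagtccagACGTGgggcccaggaggg
P4HA1, chr10:73096935-73096964: tgtgatcgagctCACGTagcgagggctgca

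Counts were compared with edgeR's quasi-likelihood test with TMM scaling and Benjamini-Hochberg adjustment over 15870 genes, those whose mean FPKM reached 0.5. FPKM is the count scaled to exonic length and to the total of the library, so it allows levels to be compared between genes. With all 6 libraries 1.41% of tested genes passed and also had a log2 fold change beyond 1 in either direction, and 0 enzyme genes did. At an unadjusted p under 0.05 there were 4 of 9 enzyme genes, against 25.1% of all tested genes. DESeq2 called 3 of 9, LOX, P4HA2 and PLOD2, against 10.6% of all tested genes. With any single library other than NC library 3 left out, or with a block for replicate number, edgeR called 0 of all tested genes. All 490 genes called with 6 libraries were also called without NC library 3. Of all tested genes, 19.3% were higher in every knockdown-labelled library than in every NC library, on normalized CPM (counts scaled to a common library total), and 19.1% were lower in every one. The 9 tested enzyme genes gave 5 and 0. The median log2 fold change was 0.40 over these 9 and -0.017 over all tested genes. Without NC library 3, 35.2% of all tested genes passed, 16.9% as higher and 18.3% as lower. In that comparison 6 of 9 enzyme genes passed, 5 as higher and 1 as lower, and their median was 0.32 against 0.0071.

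**Figure D1:**
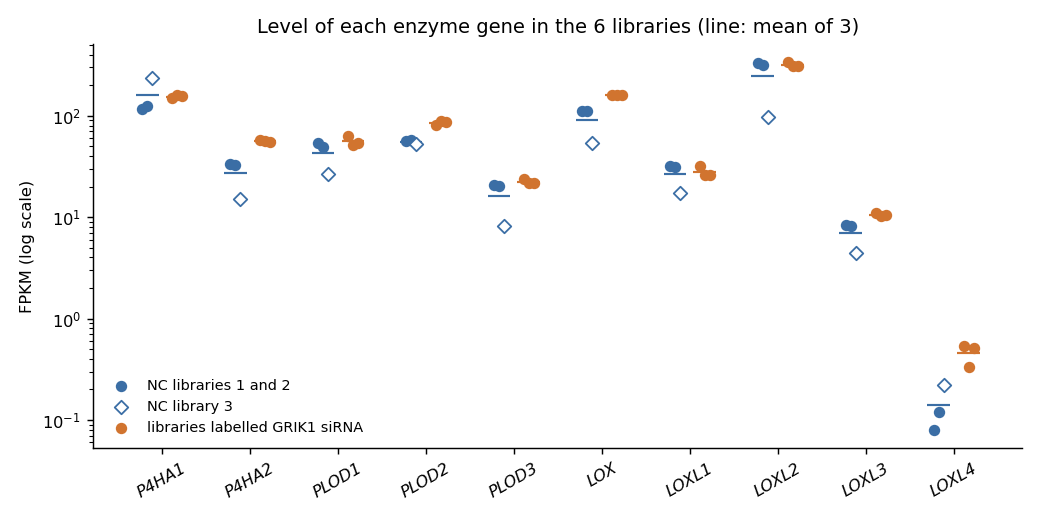
FPKM (log scale) of the 10 enzyme genes in each library, with NC in blue, the knockdown-labelled libraries in orange, NC library 3 as an open diamond and lines at the mean of 3. NC library 3 lay below NC libraries 1 and 2 for P4HA2, PLOD1, PLOD2, PLOD3, LOX, LOXL1, LOXL2 and LOXL3 and above them for P4HA1 and LOXL4.

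Among the prolyl 4-hydroxylases, P4HA2 had the largest fitted change of the 9 tested enzymes and P4HA1 changed direction with NC library 3. P4HA2 (ENSG00000072682, chromosome 5 from 132190147 to 132295315, GRCh38) was at 33.21, 32.75 and 15.23 FPKM in NC libraries 1 to 3 and at 57.61, 56.48 and 54.68 FPKM in knockdown-labelled libraries 1 to 3. The groups did not overlap, and the lowest of the latter was above the highest NC library. The means were 27.1 ± 10.3 and 56.3 ± 1.48 FPKM (SD, n = 3 each). The log2 fold change was 0.99 with a standard error of 0.25 (adjusted p = 0.0744, edgeR). Leaving out NC library 3 gave 0.75 with a standard error of 0.05 (adjusted p = 3.37e-09, edgeR), a fold of 1.68.

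P4HA1 (ENSG00000122884, chromosome 10 from 73007217 to 73096974) was at 116.8, 125.39 and 235.3 FPKM in the NC libraries and at 147.99, 159.46 and 155.57 FPKM in the knockdown-labelled ones. NC library 3 was the highest of all 6, so the groups overlapped. Its log2 fold change was -0.16 with a standard error of 0.31 (adjusted p = 0.763, edgeR). Without NC library 3 the direction turned, to 0.32 with a standard error of 0.05 (adjusted p = 0.000109, edgeR), a fold of 1.25. P4HA3, the remaining alpha subunit, was nearly silent, with a mean of 0.113 FPKM in NC and 0.117 FPKM in the other group. P4HA1 therefore made up between 72.0% and 79.2% of the summed alpha subunit FPKM in the 5 libraries other than NC library 3, and 93.9% in that library.

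Among the lysyl hydroxylases, PLOD2 had the lowest adjusted p, and its value hardly depended on NC library 3. PLOD2 (ENSG00000152952, chromosome 3 from 146069440 to 146163653), which hydroxylates lysines of the telopeptides at the ends of collagen chains, was at 56.31, 57.14 and 52.9 FPKM in the NC libraries. In the knockdown-labelled ones it was at 80.89, 88.98 and 87.28 FPKM. All 3 NC libraries agreed within a few FPKM, and the groups did not overlap. The log2 fold change was 0.54 with a standard error of 0.12, the smallest error of the tested enzymes (adjusted p = 0.0609, edgeR). With that library left out the value was 0.57 with a standard error of 0.05 (adjusted p = 2.34e-07, edgeR), a fold of 1.48. PLOD2 was the only enzyme gene whose normalized CPM in NC library 3 lay close to NC libraries 1 and 2, at 106% of their mean.

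PLOD1 (ENSG00000083444, chromosome 1 from 11934205 to 11975538), which acts on lysines of the helix, was at 53.46, 49.55 and 26.73 FPKM in the NC libraries and at 62.73, 51.99 and 53.38 FPKM in the others. These ranges overlapped, and the log2 fold change was 0.31 with a standard error of 0.22 (adjusted p = 0.401, edgeR). PLOD3 (ENSG00000106397, chromosome 7 from 101205977 to 101218420), which also has glycosyltransferase activity, was at 20.56, 20.21 and 8.22 FPKM in NC and at 23.98, 21.68 and 21.57 FPKM in the others. PLOD3 did not overlap between groups, yet NC libraries 1 and 2 came close to the lowest of the other group. Its log2 fold change was 0.40 with a standard error of 0.28 (adjusted p = 0.398, edgeR). When NC library 3 was left out, PLOD1 and PLOD3 were at 0.10 and 0.11 (standard errors 0.07 and 0.06), and neither passed (adjusted p = 0.279 and 0.148, edgeR). Both passed when a GC correction was added to that comparison, at 0.16 and 0.21 (adjusted p = 0.0173 and 0.00136, edgeR).

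By the mean FPKM of each group, the lysyl oxidases ranged from the most abundant enzyme gene to the least. LOX (ENSG00000113083, chromosome 5 from 122063195 to 122078413), the founding member of the family, was at 110.62, 110.35 and 53.42 FPKM in the NC libraries and at 158.62, 159.52 and 158.71 FPKM in the knockdown-labelled ones. The latter 3 differed from each other by under 1 FPKM, and the groups did not overlap. The means were 91.5 ± 32.9 and 159 ± 0.496 FPKM (SD, n = 3 each), and the log2 fold change was 0.73 with a standard error of 0.24 (adjusted p = 0.122, edgeR). From the 5 other libraries it was 0.50 with a standard error of 0.05 (adjusted p = 2.66e-07, edgeR), a fold of 1.41.

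LOXL3 (ENSG00000115318, chromosome 2 from 74532258 to 74555690) followed LOX at a lower level. It was at 8.37, 8.22 and 4.41 FPKM in NC and at 11.1, 10.2 and 10.45 FPKM in the others, with no overlap. Its log2 fold change was 0.53 with a standard error of 0.20 (adjusted p = 0.164, edgeR), and 0.33 with a standard error of 0.08 without NC library 3 (adjusted p = 0.00327, edgeR). DOK1 and HTRA2 overlap LOXL3 on the opposite strand and had counts equal to 55.1% and 52.2% of its own over all libraries. Whether the counting used strand is not given in the sources used here, so part of the LOXL3 count is uncertain.

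LOXL2 (ENSG00000134013, chromosome 8 from 23296897 to 23425328) carries scavenger receptor domains and is known from invasive carcinoma. It was the most abundant enzyme gene by group mean, though in NC library 3 P4HA1 was higher, at 235.3 FPKM. LOXL2 was at 330.57, 314.88 and 97.1 FPKM in NC and at 335.94, 311 and 312.18 FPKM in the knockdown-labelled libraries. NC libraries 1 and 2 lay within the range of the other group, and NC library 3 was far below every other library. The log2 fold change of 0.32 had a standard error of 0.37 (adjusted p = 0.616, edgeR). The fit without NC library 3 gave -0.039 with a standard error of 0.05 (adjusted p = 0.579, edgeR). With GC correction added to that fit the value was 0.021 (adjusted p = 0.712, edgeR), so without that library its direction was not settled. LOXL1 (ENSG00000129038, chromosome 15 from 73925989 to 73952137), known for its part in elastic fibres, was at 32.23, 31.05 and 17.33 FPKM in NC and at 31.88, 26.05 and 26.2 FPKM in the others. Its log2 fold change was -0.0059 with a standard error of 0.20 (adjusted p = 0.988, edgeR). Without NC library 3 LOXL1 fell by 0.20 with a standard error of 0.07 (adjusted p = 0.0431, edgeR). LOXL1-AS1, on the opposite strand, had 32.8% as many counts as LOXL1, which leaves that small fall uncertain. With GC correction and without NC library 3 it was -0.042 and did not pass (adjusted p = 0.565, edgeR).

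LOXL4 (ENSG00000138131, chromosome 10 from 98247690 to 98268194) had 3, 5 and 11 counts in NC and 24, 15 and 24 counts in the knockdown-labelled libraries, without overlap. Its mean of 0.3 FPKM was below the filter. Scaled to library size, the summed counts of 63 against 19 gave a ratio of 2.94, and the exact 95% interval ran from 1.74 to 5.20 for counting error alone. Leaving out single libraries moved the log2 ratio of mean normalized CPM, 1.59, from 1.27 without NC library 1 to 2.16 without NC library 3. In the fit without a filter its log2 fold change was 1.52 with a standard error of 0.48 (adjusted p = 0.0759, edgeR).

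**Figure D2:**
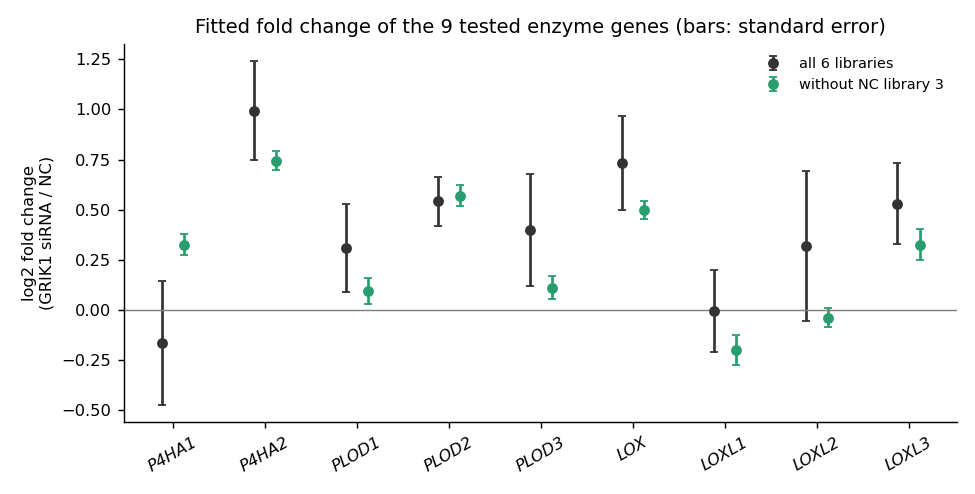
Fitted log2 fold change (knockdown-labelled libraries over NC) of the 9 tested enzyme genes, with bars of 1 standard error, for all 6 libraries and without NC library 3. P4HA2 is highest in both, at 0.99 and 0.75, PLOD2 hardly moves, from 0.54 to 0.57, and P4HA1 and LOXL2 change sign.

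NC library 3 was read against NC libraries 1 and 2 for each enzyme gene. On normalized CPM it held 34.2% of their mean for LOXL2, 45.8% for PLOD3, 52.4% for P4HA2, 54.9% for LOX, 58.9% for PLOD1, 60.3% for LOXL3 and 62.2% for LOXL1. P4HA1 was at 221%. PLOD2 was at 106%. Thus 7 of the 9 tested enzyme genes were lower in NC library 3, against 51.4% of all tested genes. The median deviation over all 9 was -0.76 on the log2 CPM scale, against -0.028 over all tested genes. Base composition moved with this deviation across genes. Among tested genes with a GC content up to 41.7% the median deviation was 0.27, and 34.3% were lower. Among those over 55.2% it was -0.38, and 70.5% were lower. LOXL2, PLOD1, PLOD3, LOXL1 and LOXL3 had GC contents between 56.4% and 67.6%, while LOX, at 39.6%, was also low in NC library 3 and P4HA1, at 40.8%, was high. P4HA2, at 49.1%, deviated by -0.93, and PLOD2, with the lowest GC content of the tested enzymes at 34.4%, by 0.080. The part of GC content in the enzyme values was tested as a correction fitted in each library. With it the log2 fold changes over 6 libraries were 0.96 for P4HA2, 0.75 for LOX and 0.58 for PLOD2, of which only PLOD2 passed (adjusted p = 0.0301, edgeR). In that fit 906 of the 15870 tested genes passed, against 490 without the correction.

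**Figure D3:**
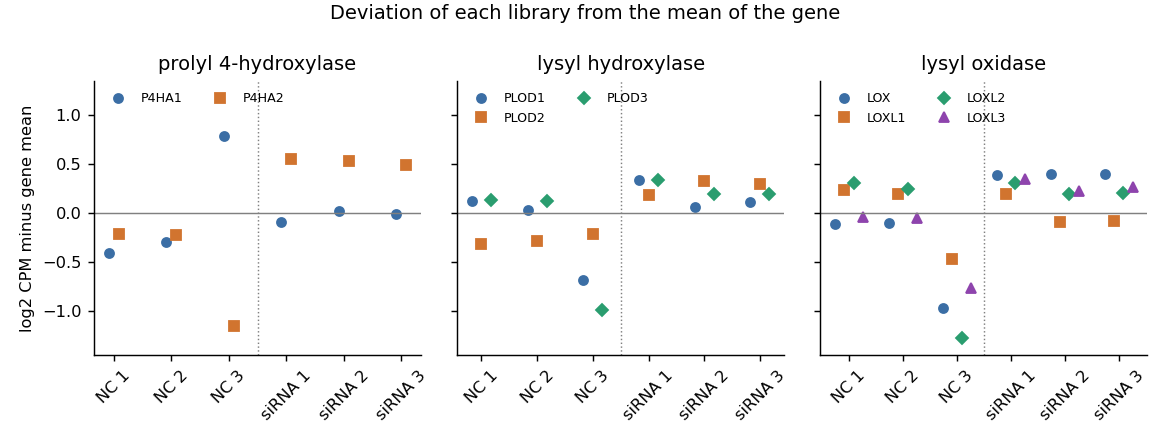
Deviation of each library from the mean of the gene, in log2 CPM, for the tested prolyl 4-hydroxylase, lysyl hydroxylase and lysyl oxidase genes, with NC left and GRIK1 siRNA right of the dotted line. In NC library 3 P4HA1 is the highest and LOXL2 the lowest point, while PLOD2 lies with the other NC libraries.

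The profiles over the 6 libraries were compared by the root mean square difference of log2 CPM centred on the mean of each gene. LOXL3 and PLOD1 were closest, at 0.12, and LOX lay nearest to LOXL3, at 0.13. P4HA2 lay nearest to LOX, at 0.14. P4HA1 was the most distant, at 0.46 from its nearest gene, PLOD2, and 0.94 from LOXL2. All these profiles share NC library 3, so the likeness is a description of these 6 libraries.

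The order of levels, from the mean FPKM, was LOXL2, P4HA1, LOX, PLOD2, PLOD1, P4HA2, LOXL1, PLOD3, LOXL3 and LOXL4 in NC. With NC library 3 included, most neighbours in that order overlapped in range, and only P4HA1 over LOX and LOXL3 over LOXL4 did not. In the knockdown-labelled libraries, LOX and P4HA2 each stood a place higher in the order. There LOX, at 159 FPKM, overlapped with P4HA1, at 154 FPKM, and P4HA2, at 56.3 FPKM, overlapped with PLOD1, at 56.0 FPKM. The other neighbours did not overlap in that group.

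The balance between paralogs was compared as 3 ratios of FPKM, which were picked after the values were known. The ratio of P4HA2 to P4HA1 was 0.284, 0.261 and 0.0647 in NC and 0.389, 0.354 and 0.351 in the knockdown-labelled libraries. The latter were all higher (two-sided exact permutation test on log2 ratios, p = 0.1, the smallest that 3 against 3 can give, and 0.3 adjusted over the 3 ratios). The ratio of PLOD2 to PLOD1 was 1.05, 1.15 and 1.98 in NC and 1.29, 1.71 and 1.64 in the others, which overlapped (exact permutation p = 0.6, adjusted 0.6). The ratio of LOX to LOXL2 was 0.335, 0.350 and 0.550 in NC and 0.472, 0.513 and 0.508 in the others (exact permutation p = 0.4, adjusted 0.6). For these last ratios NC library 3 was the highest of all, so their groups overlapped through that library.

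The partners of these enzymes in collagen maturation were read from lists. Of the 14 tested genes for folding and modification (16 listed), 3 rose with all 6 libraries and 0 fell, and 12 passed without NC library 3, 9 of them higher. The shares of all tested genes that passed were 3.09% with 6 libraries and 35.2% without NC library 3 (16.9% as higher and 18.3% as lower). The 3 lower ones there were TMEM38B at -0.40, CRTAP at -0.26 and FKBP10 at -0.18 (adjusted p = 9.85e-05, 0.000257 and 0.0112, edgeR). With all 6 libraries these did not pass (-0.83, -0.46 and -0.022). TMEM38B, an endoplasmic reticulum cation channel, and CRTAP, a partner of prolyl 3-hydroxylase 1, were lower in every knockdown-labelled library than in every NC library. These were the only 2 of the 14 that were lower in this way, against 19.1% of all tested genes. Higher in every knockdown-labelled library were 8 of the 14, against 19.3% of all tested genes. COLGALT1, which adds galactose to hydroxylysine, rose from 21.6 ± 1.58 to 40.6 ± 3.59 FPKM (SD, n = 3 each), which is 0.82 on the log2 scale with a standard error of 0.12 (adjusted p = 0.0291, edgeR). P3H2, a prolyl 3-hydroxylase, rose by 0.74 on the log2 scale (adjusted p = 0.0461, edgeR). P3H4, a partner of lysyl hydroxylase 1 in the endoplasmic reticulum, rose by 0.69 (adjusted p = 0.0491, edgeR). The call of P3H4 was lost with GC correction (adjusted p = 0.0575, edgeR), robust fitting (0.0547) and limma-trend at either pseudocount (0.0525 and 0.0592), and that of P3H2 with limma-trend at a pseudocount of 0.1 (0.0505). SERPINH1, the collagen chaperone HSP47, had a log2 fold change of 0.94 (adjusted p = 0.0675, edgeR), and P4HB, the shared beta subunit of the prolyl 4-hydroxylases, had 0.33 (adjusted p = 0.261, edgeR). Both passed without NC library 3, at 0.73 and 0.20 (adjusted p = 1.23e-07 and 0.00548, edgeR). The median of the list was 0.44, with 11 of 14 higher.

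Of the 6 tested genes for procollagen processing (9 listed), 0 passed in edgeR with all 6 libraries, 3 had an unadjusted p under 0.05 (25.1% of all tested genes) and 5 passed without NC library 3, 4 as higher and 1 as lower (35.2%, with 16.9% and 18.3%). The lower one was FURIN, a proprotein convertase, at -0.22 (adjusted p = 0.0168, edgeR), named after its value was seen. ADAMTS14, a procollagen N-proteinase, had a log2 fold change of 1.37 (adjusted p = 0.0743, edgeR) and ADAMTS3, another, had 0.77 (adjusted p = 0.0816, edgeR). BMP1, which cleaves the procollagen C-propeptide and also activates LOX, had 0.64 (adjusted p = 0.238, edgeR), and PCOLCE2, an enhancer of that cleavage, had 0.44 (adjusted p = 0.127, edgeR). With NC library 3 left out all 4 passed, BMP1 at 0.33 (adjusted p = 0.0016, edgeR), ADAMTS14 at 1.02, ADAMTS3 at 0.72 and PCOLCE2 at 0.58. Of the 8 tested genes for LOX partners, copper and ascorbate supply (11 listed), 1 passed with all 6 libraries and 4 passed without NC library 3, 3 of them higher and 1 lower, against 3.09% and 35.2% of all tested genes. EFEMP2, also called fibulin-4, which helps bring LOX to elastic fibres, fell by 0.66 on the log2 scale, from 19.8 ± 3.05 to 13.2 ± 0.825 FPKM (SD, n = 3 each, adjusted p = 0.0392, edgeR). This call was lost with scaling by library totals (adjusted p = 0.0753, edgeR) and with limma-trend at a pseudocount of 1 or 0.1 (0.0839 and 0.0924). FBN1, the microfibril protein fibrillin-1, had 1.68 (adjusted p = 0.0902, edgeR), FN1, fibronectin, had 0.91 (adjusted p = 0.302, edgeR) and SLC23A2, an ascorbate transporter, had 0.26 (adjusted p = 0.507, edgeR). With NC library 3 left out, FBN1 at 1.27 and FN1 at 0.47 passed (adjusted p = 3.37e-11 and 7.7e-07, edgeR), and SLC23A2 was at 0.020 (adjusted p = 0.883, edgeR).

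The substrates of these enzymes were read last. Of the 11 tested collagen chains (18 listed), 1 passed with all 6 libraries (3.09% of all tested genes) and 9 passed without NC library 3, 7 of them higher (35.2% of all tested genes, 16.9% as higher). COL5A1 rose from 11.1 ± 6.34 to 53.1 ± 1.17 FPKM (SD, n = 3 each), which is 2.21 on the log2 scale with a standard error of 0.43 (adjusted p = 0.0433, edgeR). The call was lost with scaling by library totals (adjusted p = 0.0517, edgeR) and with limma-trend at a pseudocount of 1 or 0.1 (0.0564 and 0.0690). COL5A2 had 1.43 (adjusted p = 0.0572, edgeR), and the type I chains COL1A1 and COL1A2 had 1.70 and 1.32 (adjusted p = 0.0744 and 0.107, edgeR). These 3 passed without NC library 3, at 1.12, 1.31 and 0.95. The 2 chains that fell there were COL6A2 at -0.46 and COL6A1 at -0.28 (adjusted p = 3.65e-05 and 0.00134, edgeR), both type VI collagen. With all 6 libraries they were at -0.16 and 0.11 and did not pass. COL6A3, also type VI collagen, was at 0.82 with all 6 libraries (adjusted p = 0.304, edgeR). Without NC library 3 it rose by 0.40 (adjusted p = 3.63e-06, edgeR). With all 6 libraries the median of the list was 0.59, beside 0.40 for the enzymes. Without NC library 3 it was 0.40, beside 0.32 for the enzymes. Neither difference was tested. Over the lists for folding, processing, LOX partners, collagen chains and hypoxia-responsive genes, 5 of 58 tested genes passed with all 6 libraries, 4 as higher and 1 as lower, and 43 without NC library 3, against 3.09% and 35.2% of all tested genes.

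**Figure D4:**
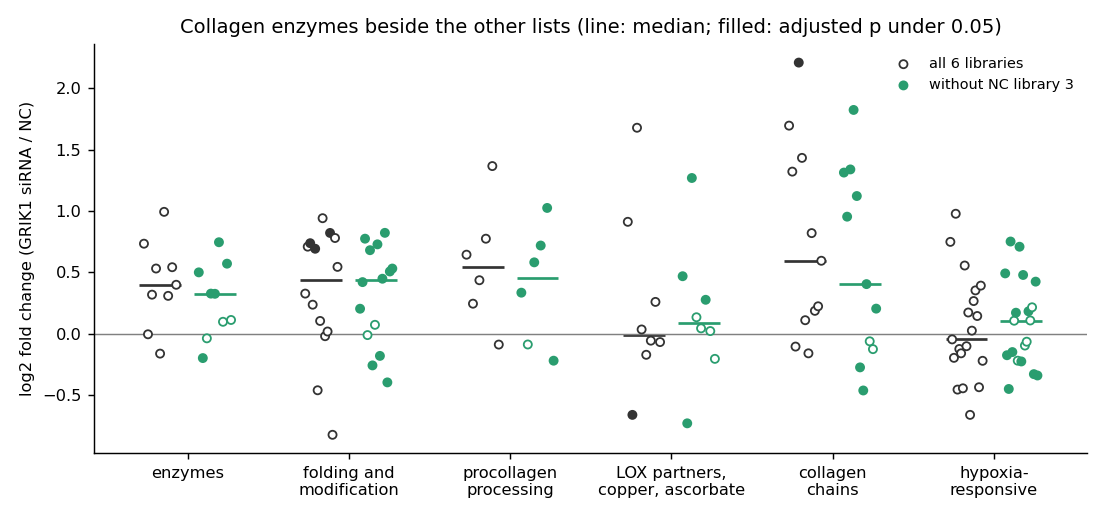
Log2 fold change of each tested gene (points) in the enzymes and in each list, with lines at the median and filled points at an adjusted p under 0.05, for all 6 libraries and without NC library 3. The median of the enzymes is 0.40 and that of the collagen chains 0.59 with all 6 libraries, and few points are filled there. Without NC library 3 these medians are 0.32 and 0.40.

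Other genes lie over the enzyme genes. ENTPD4 overlaps LOXL2 on the same strand over 39546 bases and had 8.64% as many counts, with a log2 fold change of 0.0042. ZNHIT1 overlaps PLOD3 on the opposite strand over 256 bases and had 94.3% as many counts, with a log2 fold change of -0.14, so part of the PLOD3 count is uncertain in the same way as that of LOXL3. SRFBP1 overlaps LOX on the opposite strand and had 2.28% as many counts. P4HA2-AS1, antisense to P4HA2, had 0.402% as many counts as P4HA2. For P4HA2, LOX, PLOD2 and P4HA1, no overlapping gene had more than 2.28% of the counts of the enzyme gene.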

How the data were processed

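Total RNA of 6 U87-MG libraries was compared, 3 NC and 3 labelled GRIK1 siRNA, grouped by their titles. The authors deposited, for each of 61806 genes, whole-number counts without normalization and FPKM, which equals the count per exonic size and total count for 100% of values (tolerance 0.00501). The submitters' processing notes name cutadapt 1.9.1, HISAT2, HTSeq and GRCh38. The annotation release and strand setting are not given in the sources used here.

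Groups were compared by quasi-likelihood in edgeR 4.0.16 (R 4.3.3), scaled by TMM, on the 15870 genes with a mean FPKM of at least 0.5, with a call at an adjusted p under 0.05. Alternatives used DESeq2 1.42.0, limma 3.58.1 on log2(FPKM + 1) or log2(FPKM + 0.1), other scalings and filters, a replicate block, robust fitting and leaving out each library. GC correction (lowess, span 0.3, longest GENCODE 29 transcript, 97.9% of tested genes) was chosen after seeing the data. Normalized CPM used the TMM factors, and log2 CPM a prior count of 2. Exact permutation tests and intervals used scipy 1.17.1. The tests were tested on simulated data.

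The enzymes and lists were chosen with earlier results of these data known. The genes named are the 10 enzymes, the genes overlapping them, GRIK1, marker genes and, from each list, those with an adjusted p under 0.05, or where fewer than 4 had one, the 4 with the smallest p, plus P4HB, P4HA3, COLGALT1, SERPINH1, BMP1, COL1A1 and COL1A2. FURIN, CRTAP, FKBP10, TMEM38B, COL6A1, COL6A2 and COL6A3 fall outside this rule and were named after their values were seen. Each enzyme was also paired with the enzyme of nearest profile. The paralog ratios were added after values were seen.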

Additional observations from a re-analysis of the deposited data

How the results depend on the processing

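The number of enzyme genes past an adjusted p of 0.05, 0 in the main comparison, was 3 with DESeq2 (LOX, P4HA2 and PLOD2) and 2 without a filter on low values (LOX and P4HA2). It was 1 (PLOD2) with GC correction, with limma-trend at either pseudocount, with a minimum mean FPKM of 1 and with scaling by library totals. It was 7 with GC correction without NC library 3. Leaving out each library in turn gave from 0 to 6 enzyme genes, from 0 to 5591 of all tested genes and from 0 to 43 of the pathway genes, where the upper value of each was without NC library 3. Each of the other 5 gave 0 in all 3 counts, with 2238 to 4434 genes at an unadjusted p under 0.05. Of the 15870 tested genes, 490 passed in the main comparison, 1684 with DESeq2, 906 with GC correction and 5873 with GC correction without NC library 3. Scaling by library totals gave 494 of them, and limma-trend at a pseudocount of 1 and 0.1 gave 407 and 280. A minimum mean FPKM of 1 gave 533 of 13030 genes. The fit without a filter gave 1403 of 34080 genes and tested 10 enzyme genes. Of the pathway genes, 5 in the main comparison, 16 passed with DESeq2, 16 without a filter, 10 with GC correction, 43 with GC correction without NC library 3, and 3 and 2 with limma-trend at a pseudocount of 1 and 0.1.

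With the replicate number as a block (replicate block), alone or with GC correction, 0 enzyme genes, 0 of all tested genes and 0 pathway genes passed, while 4 and 5 enzyme genes had an unadjusted p under 0.05. Whether the numbers pair the libraries is not settled. Deviations from the group means correlated at -0.070, 0.044 and -0.043 for same-numbered libraries and from -0.061 to 0.084 for the others. NC library 3 stood apart in its group and shaped every NC deviation, so these correlations cannot decide it.

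The log2 fold change of LOXL1, -0.0059, was 0.021 with the replicate block and 0.021 with GC correction and the block, 0.019 with GC correction, 0.10 and 0.11 with limma-trend at a pseudocount of 1 and 0.1, 0.014 at a minimum mean FPKM of 1 and 0.064 with library totals. Leaving out single libraries moved it from -0.20 to 0.12. That of P4HA1, -0.16, was 0.030 with limma-trend at either pseudocount, 0.29 with GC correction without NC library 3 and 0.32 without NC library 3 alone. Leaving out single libraries moved P4HA1 from -0.37 to 0.32 and LOXL2 from -0.039, without NC library 3, to 0.56. The cause was not tested. P4HA2, LOX, PLOD1, PLOD2, PLOD3 and LOXL3 stayed higher in every alternative run, with P4HA2 from 0.73 to 1.14, LOX from 0.48 to 0.87 and PLOD2 from 0.51 to 0.63.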

Other observations

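Hypoxia-responsive genes were read beside the enzymes, since both classes hold known targets of the hypoxia-inducible factors. Of 19 tested genes (20 listed), 0 passed in edgeR with all 6 libraries, 5 had an unadjusted p under 0.05 (25.1% of all tested genes), and 9 of 19 were higher. The median was -0.048 on the log2 scale. Without NC library 3, 13 passed, 7 as higher and 6 as lower, where 35.2% of all tested genes passed. SLC2A1, the glucose transporter GLUT1, had a log2 fold change of 0.98 (adjusted p = 0.0633, edgeR), and NDRG1 had 0.56 (adjusted p = 0.0953, edgeR). KDM3A, a histone demethylase, had 0.39 (adjusted p = 0.0904, edgeR). MXI1, a MYC antagonist, had -0.44 (adjusted p = 0.0986, edgeR). All 4 passed without NC library 3, at 0.75, 0.71, 0.42 and -0.33 in the order given.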
